A study of Rattus norvegicus with 6 samples.

Results

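Genes that mark oligodendrocyte progenitor cells (OPCs) were measured in RNA from cultured rat spinal cord neurons that had been exposed to glutamate, with and without knockdown of galectin-3 (GAL3, gene LGALS3). The 8 genes PDGFRA, CSPG4, OLIG1, OLIG2, SOX10, NKX2-2, GPR17 and LHFPL3 were chosen by name, from what is known of this lineage. Earlier results of these data were known when they were chosen. Of the 17648 genes listed, 7 were found under these names, and LHFPL3 was not analysed here. Of the 7, 6 averaged 1 expression unit or more and were among the 8495 genes tested. CSPG4, with a mean of 0.557, fell under that minimum, and its fold change comes from a fit of all 17648 genes.

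Both groups were primary neurons from the spinal cord of newborn Sprague-Dawley rats that were transfected with siRNA, and glutamate was added after 3 days of culture. Cytosine arabinoside (Ara-C, 0.05 mg/mL), which kills dividing cells, was added 24 h after plating to enrich the neurons. By the series' design text both groups received glutamate, which the study's methods give as 10 µM for 1 h followed by 16 h without it. The group named Glu + siR-Con (3 libraries) received a control siRNA, and the group named Glu + siR-GAL3 (3 libraries) an siRNA against GAL3. The sample labels differ from this on 2 points, since they describe siR-Con as given saline and siR-GAL3 as a knockout, but they divide the libraries in the same way. Nothing in the labels says that the replicates came from separate cultures, so the p-values measure only the spread between these libraries, which may be technical. A bulk library cannot tell fewer cells of a type from less RNA per cell.

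OPCs are the dividing, migrating cells that give rise to the myelinating oligodendrocytes of the spinal cord. They carry the PDGF receptor PDGFRA and the proteoglycan NG2 (CSPG4) on their surface, and the transcription factors OLIG1, OLIG2, SOX10 and NKX2-2 set and keep the lineage. As a cell leaves the progenitor state it passes through a premyelinating stage marked by the receptor GPR17, loses PDGFRA and then switches on myelin genes, while OLIG1, OLIG2 and SOX10 stay on in the mature cell.

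The deposited values derive from FPKM (reads per gene length and library total) that the authors then corrected for batch and within group, and they are given here in the same arbitrary expression units. The SDs, standard errors and p-values therefore rest on the spread left after that correction, which may differ from the spread as sequenced. Depth is unknown, and 3.86% of the 105888 values lie below 0. LGALS3, the targeted gene, was at 77.4, 54.4 and 62.4 in siR-Con and at -1.64, 32.3 and 18.5 in siR-GAL3. All 3 siR-GAL3 libraries were lower, with very uneven values. The value below 0 in siR-GAL3 1 has no meaning as expression, so the depth of knockdown in that library cannot be read from it. One library stood apart: siR-GAL3 replicate 2 held the lowest of the 6 values for 35.1% of tested genes and the highest for 41.5%, where each of the other 5 libraries held the lowest for 11.1% to 15.3%. Exactly repeated values tied siR-Con 1 to siR-GAL3 1, and siR-Con 2 and 3 to siR-GAL3 3, with 1312 to 1463 shared values inside these sets and 238 to 264 between sets, while siR-GAL3 2 belonged to neither. No member repeated a value between libraries. The fold change of each member is therefore given with and without siR-GAL3 2.

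The culture was rich in glial RNA. The neuronal nuclear protein gene RBFOX3 was at 0.300 to 0.429, the glutamate transporter gene SLC17A6 at 0.0474 to 0.0818 and the neurofilament gene NEFL at 0.266 to 0.460, while MAP2 and TUBB3, which neurons use for their microtubules, were at 13.1 to 19.0 and 4.03 to 5.19, the RNA-binding protein gene ELAVL3 at 7.81 to 11.0 and the synaptic gene SYT1 at 1.56 to 2.39. Against these, the astrocyte filament gene GFAP reached 515 to 758 and the myelin gene MBP reached 629 to 919. Of the 13 neuron markers listed, 5 averaged 1 or more, so the labelled cell type was present by these and low by the rest, and the OPC genes were read on a background of high astrocyte and myelin RNA.

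Among the members, the transcription factors and GPR17 were higher than PDGFRA and CSPG4. This order does not extend to all genes that mark the progenitor, since PTPRZ1 (6.70 to 14.6) and VCAN (3.14 to 8.32) were above PDGFRA. In 5 of the 6 libraries the order of levels was GPR17, SOX10, OLIG1, OLIG2, NKX2-2, PDGFRA and CSPG4, from highest to lowest. By mean over all libraries GPR17 stood at percentile 97.9 of the 17648 genes, SOX10 at 97.6, OLIG1 at 96.5, OLIG2 at 91.8, NKX2-2 at 76.3, PDGFRA at 57.2 and CSPG4 at 42.7. The ranges of neighbours in this order did not overlap over the libraries for OLIG1 and OLIG2, OLIG2 and NKX2-2, or NKX2-2 and PDGFRA. SOX10 (16.2 to 24.4) overlapped OLIG1 (13.7 to 18.6), CSPG4 (0.193 to 0.693) just reached PDGFRA (0.678 to 1.59), and the GPR17 value in siR-GAL3 2 lay under every other member. In that library OLIG1, at 16.3, was level with SOX10, at 16.2.

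**Figure D1:**
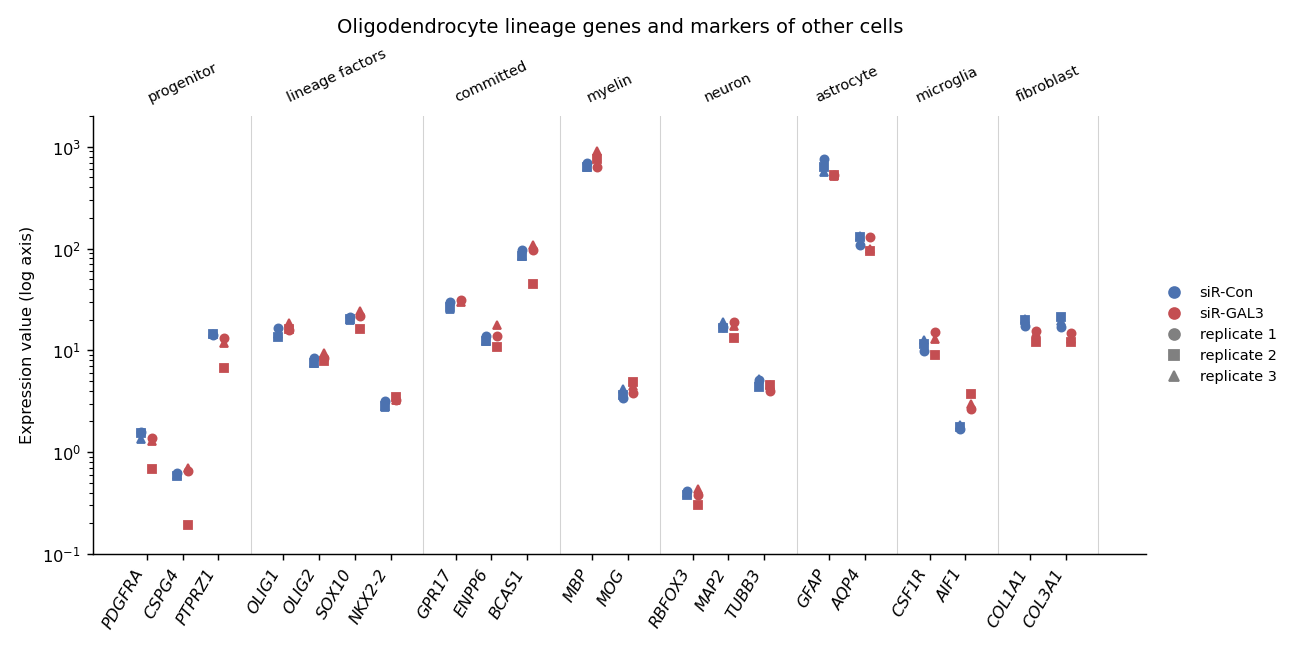
Expression level (log axis, deposited units) of genes of the oligodendrocyte lineage by stage and of markers of other cells. Each point is 1 library. GPR17, SOX10 and OLIG1 lie above 10 in most libraries, PDGFRA and CSPG4 near or under 1.5, and MBP above 600; the GPR17 value below 0 in siR-GAL3 2 cannot be drawn on a log axis and is left out.

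PDGFRA, the receptor through which PDGF-AA keeps OPCs dividing, was the member with the largest loss in siR-GAL3 that did not rest on a negative value. It was at 1.59, 1.54 and 1.35 in siR-Con and at 1.39, 0.678 and 1.29 in siR-GAL3, a mean of 1.49 ± 0.124 (SD, n = 3) against 1.12 ± 0.384 (SD, n = 3). The groups overlapped, because siR-GAL3 1 lay above siR-Con 3. The log2 fold change was -0.25 with a standard error of 0.14 (limma, Benjamini-Hochberg adjusted p = 0.589). PDGFRA in siR-GAL3 2 was 47.4% of the mean of the other 5 libraries, and leaving it out gave a log2 fold change of -0.09 (standard error 0.058). Within the library sets the difference of siR-GAL3 minus siR-Con was -0.198 in the first set and -0.162 in the second, where 2 siR-Con libraries were averaged.

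CSPG4, the NG2 proteoglycan that OPCs share with pericytes, had the lowest mean of the members and was under the minimum for testing. Its values were 0.627, 0.584 and 0.599 in siR-Con and 0.647, 0.193 and 0.693 in siR-GAL3, a mean of 0.603 ± 0.0215 (SD, n = 3) against 0.511 ± 0.276 (SD, n = 3). Replicates 1 and 3 of siR-GAL3 lay above all siR-Con libraries and replicate 2 below all of them, at 30.7% of the mean of the other 5. The direction turned on that library: the log2 fold change over all genes was -0.10 (standard error 0.14, limma adjusted p = 0.783), and 0.06 without it.

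OLIG1 and OLIG2 are basic helix-loop-helix factors that lie next to each other in the rat genome, with 0 genes between them in the order of the RefSeq list. OLIG2 is required for the lineage to form. OLIG1 was at 16.5, 13.7 and 14.6 in siR-Con and at 15.9, 16.3 and 18.6 in siR-GAL3. OLIG2 was at 8.45, 7.58 and 7.49 in siR-Con and at 8.40, 7.81 and 9.35 in siR-GAL3. For both genes siR-GAL3 3 was the highest library, and siR-Con 1 overlapped the siR-GAL3 group. The means were 14.9 ± 1.43 against 16.9 ± 1.44 (SD, n = 3) for OLIG1, a log2 fold change of 0.17 with a standard error of 0.095 (limma adjusted p = 0.590), and of 0.19 without siR-GAL3 2. For OLIG2 they were 7.84 ± 0.531 against 8.52 ± 0.777 (SD, n = 3), a log2 fold change of 0.11 with a standard error of 0.086 (limma adjusted p = 0.633), and of 0.16 without siR-GAL3 2 (limma adjusted p = 0.302). Unlike PDGFRA, neither was depleted in siR-GAL3 2, where OLIG1 was 103% and OLIG2 94.6% of the mean of the other libraries. In the first library set the difference of siR-GAL3 minus siR-Con was -0.616 for OLIG1 and -0.0502 for OLIG2, and in the second set it was 4.41 and 1.81, so the direction differed between the sets.

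SOX10, the SRY-box factor that drives myelin genes and is also used by Schwann cells, was at 21.1, 20.1 and 20.0 in siR-Con and at 21.5, 16.2 and 24.4 in siR-GAL3. The siR-Con libraries were nearly equal, and the siR-GAL3 libraries lay on both sides of them. The means, 20.4 ± 0.574 and 20.7 ± 4.14 (SD, n = 3), differed by less than the spread of siR-GAL3 (log2 fold change 0.0029, standard error 0.14, limma adjusted p = 0.994). Replicates 1 and 3 of siR-GAL3 lay above all 3 siR-Con libraries, and without replicate 2 the log2 fold change was 0.16 with a standard error of 0.064 (limma adjusted p = 0.274, unadjusted p = 0.0374).

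NKX2-2, a homeobox factor of the ventral cord that helps OPCs to differentiate, was the one tested member whose groups did not overlap. It was at 3.16, 2.82 and 2.75 in siR-Con and at 3.25, 3.44 and 3.26 in siR-GAL3. The gap between the highest siR-Con and the lowest siR-GAL3 library was narrow beside the spread within siR-Con. The mean was 2.91 ± 0.219 against 3.32 ± 0.107 (SD, n = 3), a log2 fold change of 0.14 with a standard error of 0.069 (limma adjusted p = 0.585), and of 0.12 without siR-GAL3 2. An exact permutation test, taken on both sides, over the 6 libraries gave p = 0.1, the smallest it can give with 3 against 3. Of all tested genes, 20.5% did not overlap between the groups, and 10.3% did so in the higher direction, so 1 of 6 members is near the background. NKX2-2 was the one member that was highest in siR-GAL3 2, at 113% of the mean of the others.

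GPR17, the receptor that marks premyelinating cells, held both the highest levels among the members and the largest single departure. It was at 30.0, 26.8 and 25.7 in siR-Con and at 31.0, -7.25 and 30.1 in siR-GAL3. A level below 0 has no meaning as expression, and GPR17 was 1 of 9 genes in the matrix with a value below -1, a group that also held LGALS3 and TNR. With the negative value set to 0 the log2 fold change was -1.51 with a standard error of 1.26 (limma adjusted p = 0.636). Without siR-GAL3 2 it was 0.15 with a standard error of 0.071 (limma adjusted p = 0.359), so the sign of the GPR17 difference was decided by this one value. Both remaining siR-GAL3 libraries lay above all siR-Con libraries, siR-GAL3 3 only just (30.06 against 30.03 in siR-Con 1). SOX10 and CSPG4 had the same order of groups without siR-GAL3 2. The share of all genes that separate in this way is not given, so these orders cannot be read as a result about the members.

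**Figure D2:**
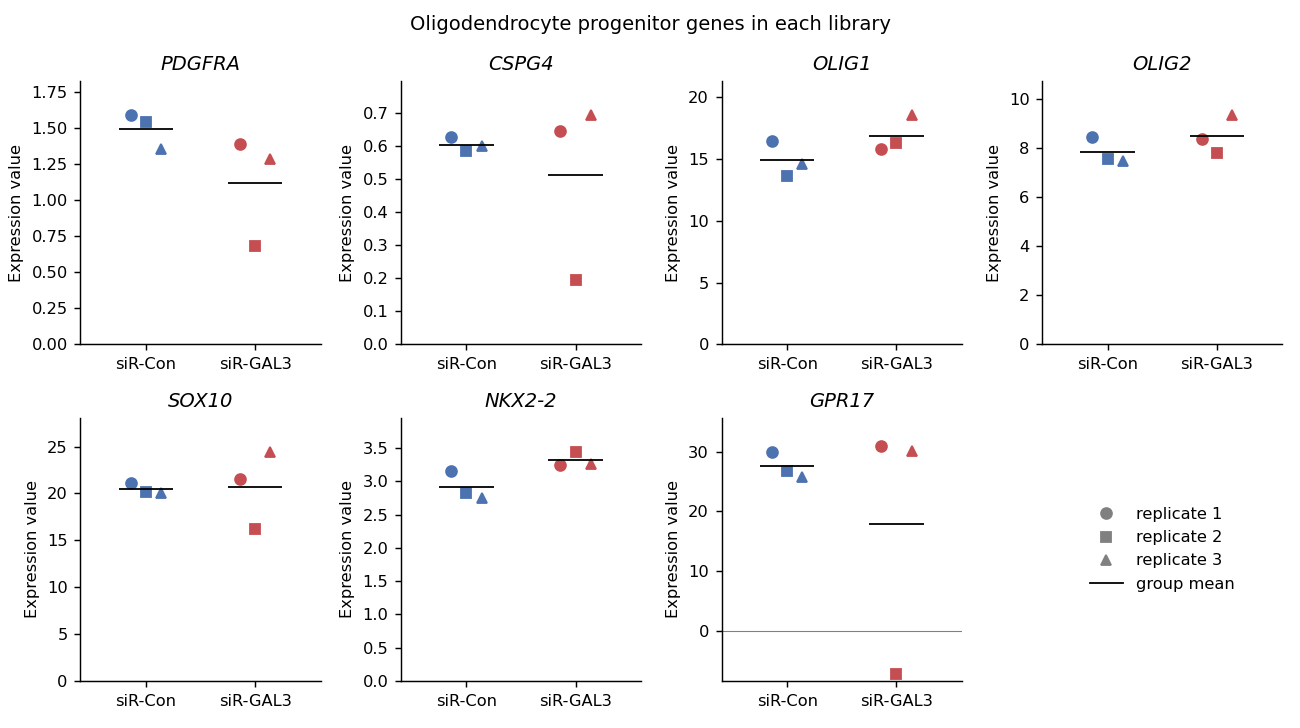
Expression level of each of the 7 OPC genes in every library (vertical axis in deposited units, points are libraries, lines are group means). SOX10, GPR17, CSPG4 and PDGFRA have 1 siR-GAL3 library, replicate 2, under all others, and NKX2-2 is the gene whose groups do not overlap.

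By the criteria of the study, an absolute log2 fold change over 1 with an unadjusted p under 0.05, 0.318% of tested genes (27 of 8495) were called and 0 of the 6 tested members. The study states these criteria where it describes its analysis of public injury datasets. Its sequencing supplement names another test, DESeq, with an adjusted p under 0.05. At an unadjusted p under 0.05 alone 8.66% of genes were called, and again 0 of 6 members. After Benjamini-Hochberg adjustment limma called 0.0% of genes, the smallest adjusted p over all genes being 0.0695. Of the tested members 4 were higher and 2 lower in siR-GAL3, where 50.0% of all genes were higher. Their median log2 fold change was 0.05, beside a median of all tested genes of -1.19e-05. Without siR-GAL3 2, OLIG2 and SOX10 had an unadjusted p under 0.05, as had 16.3% of the 8458 genes tested then, and 0 members passed the adjusted threshold that 1.97% of genes passed. The median of the members was then 0.15. Entering the library sets as a block gives siR-GAL3 2, the sole library of its set, a term of its own, so that fit also takes it out of the comparison and is no separate check of it. In that fit SOX10 alone had an unadjusted p under 0.05 (log2 fold change 0.17), against 13.8% of genes, and 0 members passed the adjusted threshold, against 1.25% of genes.

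**Figure D3:**
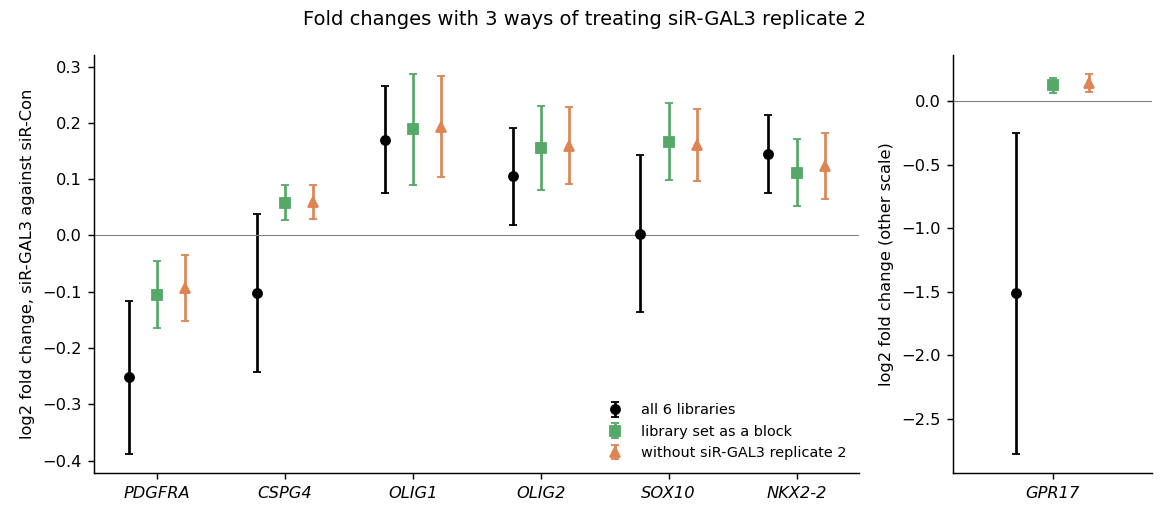
Log2 fold change of siR-GAL3 over siR-Con for each OPC gene, with all 6 libraries, with library sets blocked (which also takes siR-GAL3 2 out of the comparison), and without siR-GAL3 replicate 2. Bars are standard errors, and GPR17 has an axis of its own. GPR17 moves from -1.51 to 0.15 and CSPG4 from -0.10 to 0.06, while PDGFRA stays below 0 and OLIG1, OLIG2 and NKX2-2 stay above 0.

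Low values in siR-GAL3 2 were uneven over the lineage and were also found outside it. Of the 6 tested members 3 had their lowest value there (PDGFRA, SOX10 and GPR17), and CSPG4, which was not tested, had its lowest there too, beside the 35.1% of tested genes given above. Of 12 tested genes of the list of other OPC genes, 9 were lowest in that library, and of 15 premyelinating genes 10 were, compared with 3 of 16 mature myelin genes. The same held for 7 of 9 tested astrocyte markers and 6 of 7 growth factor receptors. The genes that follow were picked after their values were seen. The extracellular matrix gene TNR was at -3.75 beside 9.77 to 11.8 in the other libraries, a value below 0 like that of GPR17. The phosphatase PTPRZ1 was at 6.70 beside 11.7 to 14.6, and the transcription factor SOX6, which holds OPCs undifferentiated, at 0.859 beside 2.48 to 3.14. Of the premyelinating genes, TCF7L2 was at 2.46 beside 7.12 to 8.46, BCAS1 at 44.8 beside 85.0 to 109, and ITPR2 at 0.441 beside 3.39 to 3.73. The mature myelin gene MBP, at 763, did not have its lowest value in that library, nor did OLIG1, OLIG2 and NKX2-2.

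**Figure D4:**
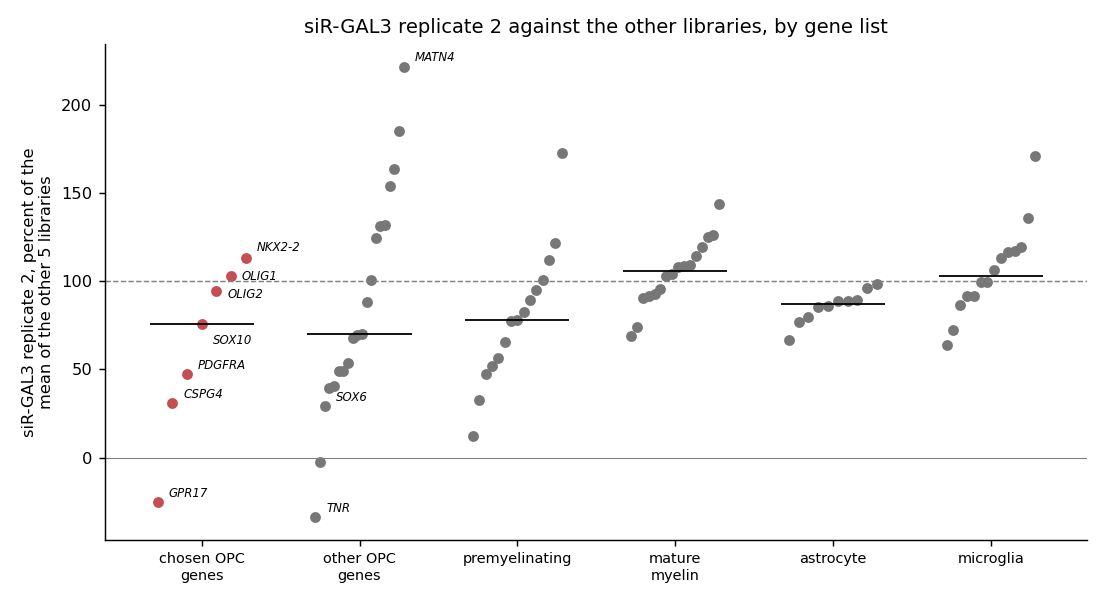
Level in siR-GAL3 replicate 2 as a percent of the mean of the other 5 libraries, 1 point per gene, grouped by gene list; the black bar is the median of the list and the dashed line is 100%. The OPC genes have a median of 75.8%, other OPC genes 69.8% and premyelinating genes 78.2%, and mature myelin genes 106%.

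The levels of the transcription factors relative to PDGFRA differed between the groups, as did those of many other genes. The levels of the 6 other members were divided by the PDGFRA level of the same library, a comparison that was chosen after the values were seen. The ratio of OLIG1 to PDGFRA was 8.86 to 10.8 in siR-Con and 11.4 to 24.0 in siR-GAL3. That of OLIG2 was 4.92 to 5.53 and 6.05 to 11.5, that of SOX10 13.0 to 14.8 and 15.5 to 24.0, and that of NKX2-2 1.83 to 2.03 and 2.34 to 5.07. All 4 ratios were higher in every siR-GAL3 library than in any siR-Con library, also when replicate 2 was set aside, and for each the exact permutation p was 0.1, the smallest possible. The ratios of CSPG4 and GPR17 overlapped through replicate 2. In siR-GAL3 1 and 3 the CSPG4 ratio was 0.465 and 0.539, against at most 0.442 in siR-Con. The GPR17 ratio was 22.3 and 23.4, against at most 19.0. With replicate 2 set aside the separation was therefore not particular to the transcription factors, and the share of all genes is not given for that case. Since the 4 ratios share their denominator they are not separate results. Over all 6 libraries, 31.0% of all tested genes had a higher ratio to PDGFRA without overlap.

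**Figure D5:**
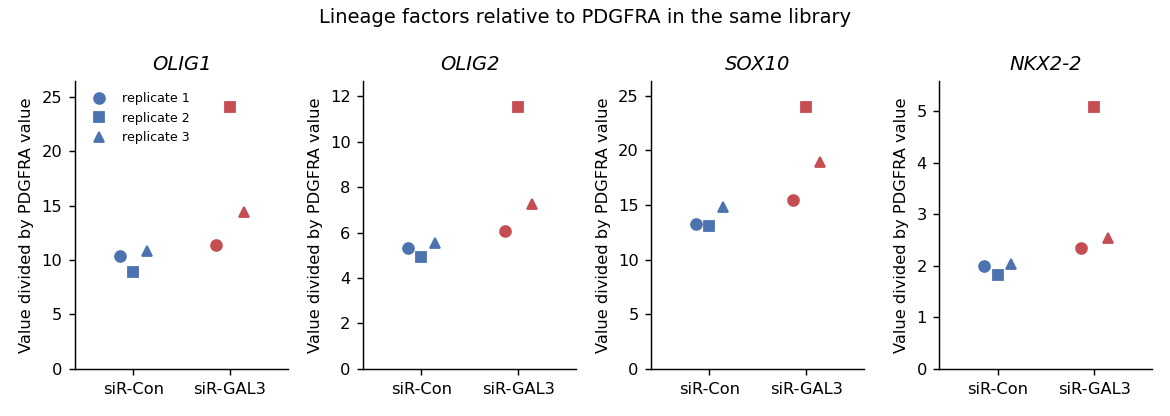
Ratio of each transcription factor to PDGFRA in the same library, by group (points are libraries, vertical axis without unit). In all 4 panels the 3 siR-GAL3 libraries lie above the 3 siR-Con libraries, with siR-GAL3 2 the highest.

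Fibroblasts and their relatives also carry PDGFRA, and the collagen genes of these cells were lower in siR-GAL3 as well. The 9 listed fibroblast markers summed to 52.4 to 60.1 in siR-Con and to 42.1 to 47.2 in siR-GAL3, without overlap. Without COL1A1 and COL3A1 the sums were 17.9 to 19.1 and 14.6 to 18.7, which overlap. Of the 7 tested, 5 were lower and 2 higher, and 4 had an unadjusted p under 0.05 (8.66% of all tested genes did), with 0 passing adjustment. These were the collagen genes COL3A1 (log2 fold change -0.50) and COL1A1 (-0.42), the matrix gene FBLN1 (-0.18) and the homeobox gene PRRX1 (-0.20), and the 2 higher genes were DCN (0.16) and CRABP2 (0.09). The related receptor PDGFRB was also lower, with 1.44, 1.92 and 1.72 in siR-Con and 1.26, 1.08 and 1.20 in siR-GAL3 (log2 fold change -0.30, unadjusted p = 0.00806). The part of these cells in the PDGFRA difference was not tested.

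The promoters of PDGFRA and OLIG2 are shown because these members were set against each other in the ratios, which were chosen after the values were seen. Each is the 300 bases from 250 before to 50 after the gene's start in RefSeq, build GRCr8, with matches to the E-box CANNTG, the letters that basic helix-loop-helix factors such as OLIG2 read, in capitals.
Pdgfra, chr14:33408467-33408766, minus strand: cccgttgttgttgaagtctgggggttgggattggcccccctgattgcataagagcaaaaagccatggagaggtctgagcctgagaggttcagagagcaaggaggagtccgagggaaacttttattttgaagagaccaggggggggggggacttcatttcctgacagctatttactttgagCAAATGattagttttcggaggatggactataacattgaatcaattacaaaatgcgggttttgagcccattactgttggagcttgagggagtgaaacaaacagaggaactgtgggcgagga
Olig2, chr11:43961335-43961634, plus strand: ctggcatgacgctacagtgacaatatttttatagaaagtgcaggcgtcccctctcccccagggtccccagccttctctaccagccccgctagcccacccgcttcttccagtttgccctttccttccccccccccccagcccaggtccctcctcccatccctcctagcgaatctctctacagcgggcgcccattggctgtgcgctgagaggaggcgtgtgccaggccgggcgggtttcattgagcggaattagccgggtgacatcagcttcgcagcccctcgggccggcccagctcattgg
The Pdgfra window held 1 E-box and the Olig2 window 0, where 72.1% of 33469 such windows hold at least 1. The SOX motifs ACAAAG and ACAATG, searched on both strands like the E-box, were in neither window and in 18.8% and 13.2% of all windows. Of the 8 members 6 had a window in the table, and besides Pdgfra the E-box was found in Lhfpl3, with 3 matches. A match is a description of letters and not a site of binding.

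Among 20 other OPC genes 12 were tested, of which 3 were higher and 9 lower, with a median log2 fold change of -0.22, and -0.09 without siR-GAL3 2. The gene with an unadjusted p under 0.05 was SCRG1, which was higher (7.35, 6.59 and 6.48 against 7.72, 7.50 and 9.02, log2 fold change 0.22). All 15 premyelinating genes were tested, 7 higher and 8 lower, and their median of -0.06 became 0.14 without that library. NKX6-2, a homeobox partner of NKX2-2 that comes on as oligodendrocytes mature, was at 2.34, 2.25 and 2.04 in siR-Con and at 2.38, 4.36 and 3.60 in siR-GAL3 (log2 fold change 0.45, unadjusted p = 0.0285). Of 16 mature myelin genes 11 were higher and 5 lower, with a median of 0.14 in both fits. The gap junction gene GJB1 had the smallest p of them, with 2.31, 1.96 and 1.95 against 2.53, 3.01 and 3.26 (log2 fold change 0.35, unadjusted p = 0.00674). None of these genes passed after adjustment in limma with all libraries.

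The ligands to which OPCs answer overlapped between the groups. Of 10 growth factor ligands 4 were tested, 3 higher and 1 lower, and 0 had an unadjusted p under 0.05. PDGFA, the ligand of PDGFRA, was at 4.15, 3.40 and 3.54 in siR-Con and at 3.41, 4.52 and 4.10 in siR-GAL3, overlapping throughout. IGF1, which favours survival of the lineage, was at 4.02, 5.90 and 6.38 against 6.94, 4.80 and 4.88. Of 7 tested growth factor receptors 6 were lower, with a median of -0.21, and -0.07 without siR-GAL3 2, in which 6 of the 7 had their lowest value. PDGFRB was the receptor with an unadjusted p under 0.05. Among genes that hold back differentiation, 9 of 13 were tested and 7 were lower, with a median of -0.13. Of these the BMP receptor BMPR1B was at 4.03, 4.77 and 4.95 against 4.44, 2.75 and 3.08 (log2 fold change -0.35, unadjusted p = 0.0492).

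Other cell types that share single members were read through their own markers. For CSPG4, the pericyte genes RGS5, KCNJ8 and ABCC9 were at or below 0.075 in every library, and the 11 pericyte markers summed to 15.6 to 17.0 in siR-Con and 14.8 to 18.0 in siR-GAL3. Most of that sum was the adhesion gene MCAM (10.4 to 13.6), and without it the sums were 4.91 to 5.88 and 4.35 to 4.47, without overlap. The list was split in direction. Of the 3 tested, 1 was higher, MCAM (log2 fold change 0.10), and 2 were lower, PDGFRB and NOTCH3. Among those not tested, ANPEP was higher without overlap (log2 fold change 0.24 in the fit of all genes). RGS5 and ABCC9, both at very low levels, were lower without overlap. NOTCH3, a receptor of mural cells, was lower in siR-GAL3 (mean 1.34 ± 0.0534 against 0.847 ± 0.168, SD, n = 3), with a log2 fold change of -0.34 and of -0.27 without siR-GAL3 2, where limma gave an adjusted p of 0.0385. For SOX10, the Schwann cell list summed to 38.8 to 41.6 and 35.1 to 37.9, with PMP22, a myelin gene of peripheral nerve, lower in siR-GAL3 (log2 fold change -0.38, and -0.46 without siR-GAL3 2, where limma gave an adjusted p of 0.0175). For OLIG2 and NKX2-2, the motor neuron factors ISL1 and MNX1 and the interneuron factor SIM1 were at or below 0.0182. FOXP1, the one tested gene of the 9 ventral neuron markers, was at 0.907 to 1.27. The part of pericyte markers in the CSPG4 values and of Schwann cell markers in the SOX10 values was not tested.

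The 7 OPC genes summed to 72.6 to 81.4 in siR-Con and to 82.1, 37.4 and 87.6 in siR-GAL3. The groups overlapped through replicate 2, which holds the GPR17 value below 0. Without it they were separated narrowly, 81.4 against 82.1, and the share of all genes that separate in this way is not given. GPR17, SOX10 and OLIG1, the highest members, made up most of the sum. PDGFRA alone of the members remained lower without replicate 2 (log2 fold change -0.09). Microglial markers summed to 125 to 149 and 157 to 178, with 12 of 13 tested genes higher and 6 at an unadjusted p under 0.05, led by CD68 (log2 fold change 0.54), PTPRC (0.43), AIF1 (0.57) and C1QC (0.30). Without siR-GAL3 2, 7 had an unadjusted p under 0.05 and 4 passed the adjusted threshold in limma (CD68, AIF1, PTPRC and ITGAM), beside the 1.97% of all genes given above. Astrocyte markers summed to 853 to 999.6 and 740 to 794, with 7 of 9 tested genes lower and 4 at an unadjusted p under 0.05, namely SLC1A2 (-0.45), ALDH1L1 (-0.26), GFAP (-0.31) and ALDOC (-0.17). GFAP made up most of that sum, and without it the sums were 242 to 282 and 218 to 271, which overlap. Neuron markers summed to 33.9 to 39.0 and 32.1 to 39.2, and STMN2 was the one with an unadjusted p under 0.05 (0.33). Of 11 proliferation genes 5 were higher and 6 lower, with MKI67 at 2.65 to 2.96 over all libraries, BIRC5 higher (0.47) and TYMS lower (-0.25). The part of microglia, astrocytes and dividing cells in the values of the OPC genes was not tested.

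How alike the members were was read from the order of the libraries, as a description over 6 libraries that share their processing. SOX10 ordered 14 of the 15 pairs of libraries as CSPG4 did and 14 as GPR17 did, and CSPG4 and GPR17 shared the order of 13. OLIG1 and OLIG2, the genomic neighbours, also shared 13. PDGFRA shared the order of 6 pairs with OLIG1 and of 4 with NKX2-2. The genes outside the lists closest to the mean standardised pattern of the 6 tested members were ZFP365, SLC7A1 and GPR107, at distances of 0.791, 0.800 and 0.810 over the 6 libraries, where the median of 8374 genes was 2.78.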

How the data were processed

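RNA was sequenced in 6 libraries of cultured rat spinal cord cells. Per the labels and the study's methods, the authors aligned reads with STAR, counted them with HTSeq v0.5.4 and computed FPKM, then removed batch effects and corrected within groups with tools that are not named. The genome build is not given in the sources used here. The deposited values are therefore a score derived from FPKM and not FPKM itself, since 3.86% of them are below 0. Analysis had been planned for FPKM, and the same log2 test was kept. Values below 0 were set to 0, 1 was added, and the genes averaging 1 or more entered limma 3.58.1 (R 4.3.3), siR-GAL3 against siR-Con, with Benjamini-Hochberg adjustment over 8495 genes. The test was tried on simulated data first. Exact permutation tests used SciPy 1.17.1, and ratios and sums used the deposited values. Depth is unknown, so no counting interval is given.

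The members and gene lists were chosen with earlier results of these data known. Genes were named by rule: all members, from each list up to 4 genes with the smallest unadjusted p under 0.05 or else the 2 most abundant, defining markers by level, LGALS3, and the 3 genes closest in pattern. Other genes named in the text were picked after their values were seen. Alternatives covered the filter, pseudocount, log scale, scaling, negative values, blocks for replicate and library set, and leaving out each library. SNAP25, COL1A2, FOXD3 and CCNB2 were not analysed here.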

Additional observations from a re-analysis of the deposited data

How the results depend on the processing

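In every alternative run, 0 members were called by the criteria of the study and 0 had an adjusted p under 0.05 in limma. The 27 genes called became 6 with a minimum mean of 5, 401 without the log transformation and 15 without genes that hold a negative value. The 736 genes with an unadjusted p under 0.05 became 1623 without a filter, 260 with a minimum mean of 5 and 1174 with library sets blocked, and 362 to 1381 when single libraries were left out. The 0 genes with an adjusted p under 0.05 became 106 with the library set block and 0 to 167 when single libraries were left out, the most without siR-GAL3 2. Members with an unadjusted p under 0.05 numbered 1 without a filter (NKX2-2), 1 with the library set block and 0 to 2 without single libraries. Members without overlap numbered 1 to 4 when single libraries were left out. The share of all genes without overlap is not given for those runs, so these counts cannot be read as a result about the members. CSPG4 became 0.058 with the library set block and ranged from -0.19 to 0.059 without single libraries, GPR17 became 0.13 and ranged from -2.35 to 0.15, and SOX10 became -0.0021 with median-ratio scaling and ranged from -0.12 to 0.16. PDGFRA had an unadjusted p under 0.05 without siR-GAL3 1 (log2 fold change -0.35).

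With the replicate number as a block, 6 genes had an adjusted p under 0.05. Same-numbered libraries did not deviate together from their group means (correlations of -0.17, -0.070 and 0.044), and only siR-GAL3 3 correlated best with its own number. Because siR-GAL3 2 stood apart and moved the mean of its group, this check cannot decide whether the numbers are pairs. Repeated values tied siR-Con 1 to siR-GAL3 1 and siR-Con 3 to siR-GAL3 3, but also siR-Con 2 to siR-GAL3 3, and siR-GAL3 2 to none. The numbers were not taken as pairs.

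Unknown depth, 3 libraries a group and values altered after normalization limit what can be read for CSPG4 and PDGFRA, the lowest members, and for GPR17, whose difference rests on a negative value. The cause of that value was not tested.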
